A study of Mus musculus with 8 samples.

Results

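A set of 10 genes commonly used to mark astrocytes, Gfap, S100b, Aldh1l1, Aqp4, Slc1a2, Gja1, Gjb6, Aldoc, Glul and Apoe, were followed in RNA-seq of embryonic mouse cortex. The rule for them is a list of symbols and no measured value, though the list was chosen with earlier results of these data known. All 10 were found among the 23284 gene symbols of the count files. None of the 8 that passed a filter on low counts reached the threshold between genotypes after correction over all genes, and only Gfap had an unadjusted p below 0.05, with a level 2.06-fold higher in the libraries labelled ErbB4 KO. The other members that passed the filter had fitted log2 fold changes between -0.15 and 0.48. S100b and Gjb6 did not pass the filter on low counts.

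The cortex came from C57BL/6 mouse embryos at E15.5. The WT group (4 libraries) carries both normal ErbB4 alleles, and the group labelled ErbB4 KO (4 libraries, genotype ErbB4 -/-) is homozygous for the germline loss of the receptor tyrosine kinase gene Erbb4. Mice without ErbB4 die early from heart defects. The study states that work on such knockouts has used animals rescued by ErbB4 expressed in the heart from the alpha-MHC promoter. It does not say so of these libraries, but it bred adult ErbB4 -/- mice, which implies the rescue in this line. A rescue transgene would be a further genotype difference from WT. Per its methods, both genotypes were bred as separate homozygous lines, so embryos of different genotypes were not littermates. The labels name no treatment for either group. The study asked whether ErbB4, whose released intracellular domain acts in the nucleus, holds the astrocyte gene Gfap low in the developing cortex, and used the RNA-seq to look for further genes that depend on ErbB4.

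Astrocytes arise late in cortical development, from the same radial glia that first produce neurons. The switch is driven by cytokine signalling through STAT3, by Notch signalling through RBPJ and by the NFI transcription factors, and it is held back in the neurogenic period by proneural factors, DNA methylation and repressor complexes. The 10 members cover different parts of the mature cell: the intermediate filament (Gfap), a calcium-binding protein (S100b), water and gap-junction channels (Aqp4, Gja1, Gjb6), glutamate uptake and conversion (Slc1a2, Glul), folate and sugar metabolism (Aldh1l1, Aldoc) and lipid transport (Apoe). Several of them, among them Slc1a2, Gja1, Glul, Aldoc and Apoe, are also expressed by radial glia or other cells, so that their RNA in embryonic cortex does not mark astrocytes alone.

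The stretches just before the Gfap and S100b start sites are shown because Gfap is the astrocyte gene of the study's question and S100b the other glial gene whose promoter its background names. Each is the 250 bases before the start of the longest coding transcript in the GENCODE annotation of NCBIM37 (mm9), read 5′ to 3′ on the gene's strand. The Gfap stretch lies at chr11:102758446-102758695 on the minus strand. The S100b stretch lies at chr10:75716348-75716597 on the plus strand. Capitals mark matches to TTCNNNGAA (a STAT-type site) and TGGGAA (an RBPJ-type site) in Gfap and to TTGGC (the short NFI site, 1 arm of its palindrome) in S100b, searched on both strands.
Gfap: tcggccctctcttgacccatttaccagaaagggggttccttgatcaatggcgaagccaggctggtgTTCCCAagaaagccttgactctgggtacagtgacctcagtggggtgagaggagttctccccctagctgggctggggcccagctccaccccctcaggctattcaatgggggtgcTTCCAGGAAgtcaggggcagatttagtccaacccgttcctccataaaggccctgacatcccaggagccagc
S100b: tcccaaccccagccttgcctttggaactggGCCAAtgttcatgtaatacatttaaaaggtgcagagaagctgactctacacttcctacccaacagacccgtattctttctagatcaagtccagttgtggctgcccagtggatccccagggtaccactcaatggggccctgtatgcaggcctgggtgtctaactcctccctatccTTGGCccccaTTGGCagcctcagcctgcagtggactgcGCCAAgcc

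Among the 10 members, the STAT-type letters occurred only in the Gfap stretch, as TTCCAGGAA with its first base at position -71 from the start. Of 22231 stretches of the same length before coding genes, 6.74% held these letters. The RBPJ-type letters occurred in Gfap (at -184), Aldh1l1 and Aldoc, which is 3 of 10 members against 20.8% of all stretches. The short NFI site occurred in 5 of 10 members (S100b, Slc1a2, Aldoc, Glul and Apoe) against 41.9% of all, with 4 matches in S100b. The full NFI palindrome, TTGGC and GCCAA spaced by 5 bases, contains the short NFI site on each strand and was in none of the 10 and in 0.0315% of all. A match is a description of the letters in this window and not a measured binding site.

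Between 28205703 and 48871480 reads were counted per library. The level of Erbb4 itself was 8.99, 19.9, 25.3 and 19.2 CPM (reads scaled for library size with TMM factors) in WT replicates 1 to 4 and 20.9, 24.6, 20.7 and 23.5 CPM in the libraries labelled ErbB4 KO. It was therefore not lower under the KO label (fitted change 0.28 on the log2 scale with SE 0.23 and an adjusted p of 0.812 in edgeR, 0.06 without WT replicate 1 and 0.48 without WT replicate 3). These counts add up reads from the whole gene, so they cannot show whether the disrupted part of the transcript is missing, and the genotype of every library is taken from its label. A pair of libraries stood apart. WT replicate 1 lay at -38.9 on the first principal component (30.6% of the variance) with all others at -6.07 or higher, and its deviations correlated with transcript length (Spearman -0.579, across genes). KO-labelled replicate 3 held RNA of choroid plexus, with Ttr (transthyretin) at 572 CPM against 0.571 to 8.76 CPM in the other libraries. Xist, expressed from the inactive X of females, was at 983 to 1686 CPM in WT replicates 1 to 3 and at 2.70 to 3.82 CPM in WT replicate 4 and all KO-labelled libraries, while the Y-linked Ddx3y had the opposite pattern. Embryo sex and genotype are thus partly confounded. Whether the libraries come from separate embryos is not stated in the labels, so p-values measure the spread between these libraries.

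Per length of transcript, the members fell into a well-expressed and a scarce set. Aldoc (55.0 ± 5.08 CPM per kb of the longest coding transcript, SD, n = 8) and Glul (52.7 ± 2.93) had the highest levels and overlapped each other, with Aldoc above Glul in 5 of 8 libraries. Apoe followed at 30.03 ± 5.94 CPM per kb, with a range that met neither neighbour's. Gja1 (11.2 ± 1.12), Slc1a2 (10.2 ± 1.25) and Aldh1l1 (7.39 ± 1.02) formed the next step, with ranges that overlapped from each to the next. A gap without any overlap separated Aldh1l1, whose lowest library was at 6.39, from Gfap, whose highest was at 0.781. Gfap (0.424 ± 0.213), Aqp4 (0.295 ± 0.0826) and S100b (0.142 ± 0.104) then overlapped in their ranges, and Gjb6 was last, detected in 1 library. By mean count, 10.5% of the 14696 genes tested lay below Gfap and 12.96% below Aqp4, against 88.4% below Glul and 89.1% below Aldoc. Gfap and Aqp4 were thus among the scarcer of the genes tested, S100b and Gjb6 fell below the filter on low counts, and Glul and Aldoc were among the more abundant transcripts.

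**Figure D1:**
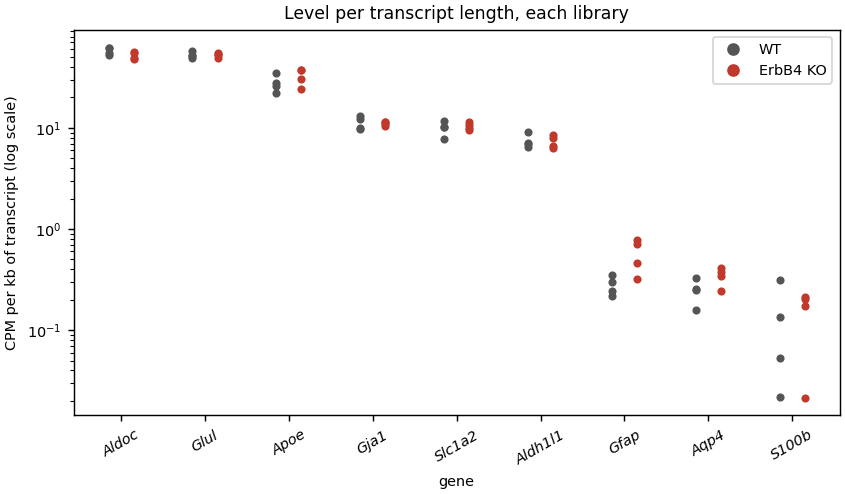
Level of 9 members in each library as CPM per kb of the longest coding transcript, on a log axis, for WT (grey) and ErbB4 KO (red) libraries; Gjb6, detected in 1 library, is left out. Aldoc and Glul lie near 50, and Gfap, Aqp4 and S100b lie below 1 in every library.

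The question for each member was whether its RNA differed between the genotypes. The test was edgeR's quasi-likelihood test, adjusted by Benjamini-Hochberg over the 14696 genes that had enough reads. Of the 10 members, 8 passed this filter, and the others were fitted with no filter. None was called at an adjusted p below 0.05, where 4 of 14696 genes (0.0272%) were called. At an unadjusted p below 0.05, 1 of 8 members (Gfap) was found, against 812 genes or 5.53% of all. This count moved with single libraries, to 4 of 9 (Gfap, Aqp4, Aldoc and Apoe) against 7.73% of all genes without KO-labelled replicate 4, to 3 of 9 (Gfap, Aqp4 and Aldoc) against 9.40% without WT replicate 2 and to 2 of 8 (Gfap and Apoe) against 5.93% without WT replicate 1. With the length trend removed it was 3 of 8 (Gfap, Aldoc and Apoe) against 7.06%. DESeq2 and limma-voom likewise called 0 members and found Gfap alone at an unadjusted p below 0.05, against 5.10% and 5.72% of all genes. In no member did the WT and KO-labelled libraries lie on separate sides, which 3.34% of all genes tested did. The fitted change was higher under the KO label in 4 members and lower in 4, with a median log2 fold change of 0.03 against -0.0022 over all genes. This median ranged from -0.011 without KO-labelled replicate 1 to 0.12 with Xist as a covariate, and was 0.07 without WT replicate 1. The adjusted p of the members ranged from 0.81 to 0.993. In these bulk samples, fewer cells of a type and less RNA per cell cannot be told apart.

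**Figure D2:**
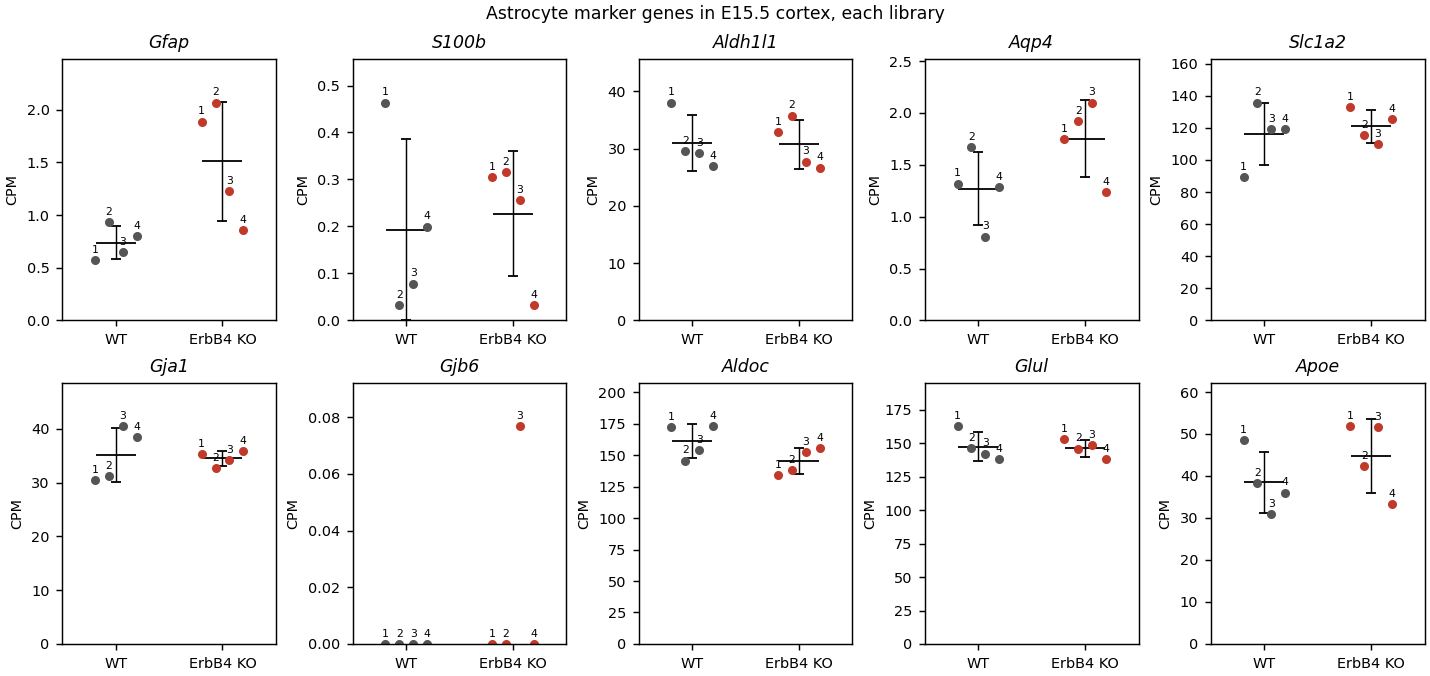
CPM of the 10 members in each WT (grey) and ErbB4 KO (red) library, numbered by replicate, with mean and SD as bars (none for Gjb6) and axes from 0. In Gfap and Aqp4 KO-labelled replicates 1 to 3 lie above all WT libraries and KO-labelled replicate 4 lies among them, and in no member do the groups separate.

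Gfap encodes the glial fibrillary acidic protein, the main intermediate filament of astrocytes. Its gene lies on chromosome 11 from 102748650 to 102762226 on the minus strand. It was counted with 16, 29, 25 and 28 reads in WT replicates 1 to 4 and with 93, 72, 48 and 27 reads in the KO-labelled replicates. Scaled to depth, this was 0.571, 0.93, 0.651 and 0.798 CPM in WT and 1.89, 2.07, 1.23 and 0.857 CPM under the KO label. KO-labelled replicates 1 to 3 were above every WT library, and KO-labelled replicate 4 was below WT replicate 2, so the groups overlapped. The group means were 0.737 ± 0.159 and 1.51 ± 0.565 CPM (SD, n = 4 each), and the fitted log2 fold change was 1.04 (SE 0.30, 95% interval 0.39 to 1.69).

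The unadjusted p of Gfap in edgeR was 0.00454, the 76th lowest of all genes tested, and the adjusted p was 0.81. The exact two-sided permutation test of its mean log2 CPM gave p = 0.0571, where 0.0286 is the lowest that 4 against 4 allow. The exact 95% binomial intervals cover counting error only and are scaled by raw library totals. They were 1.54 to 2.33 CPM for KO-labelled replicate 1 and 1.62 to 2.60 for replicate 2, both above the upper limit of 1.34 in WT replicate 2. The interval of KO-labelled replicate 3, from 0.902 to 1.62, reached into that of WT replicate 2. The result moved with single libraries. Without KO-labelled replicate 4 the log2 fold change was 1.22, the adjusted p was 0.243 and the groups of Gfap and Aqp4 no longer overlapped, as for 9.95% of all genes then. Without WT replicate 2 the groups of Gfap did not overlap either, as for 9.55% of all genes. Across all alternatives run the log2 fold change of Gfap stayed between 0.86 and 1.22 and the adjusted p between 0.243 and 1.00. WT replicate 4, the WT library with the male pattern of Xist and Ddx3y, was at 0.798 CPM, below all 4 KO-labelled libraries. With Xist as a covariate the log2 fold change was 0.94 and the unadjusted p no longer passed 0.05.

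**Figure D3:**
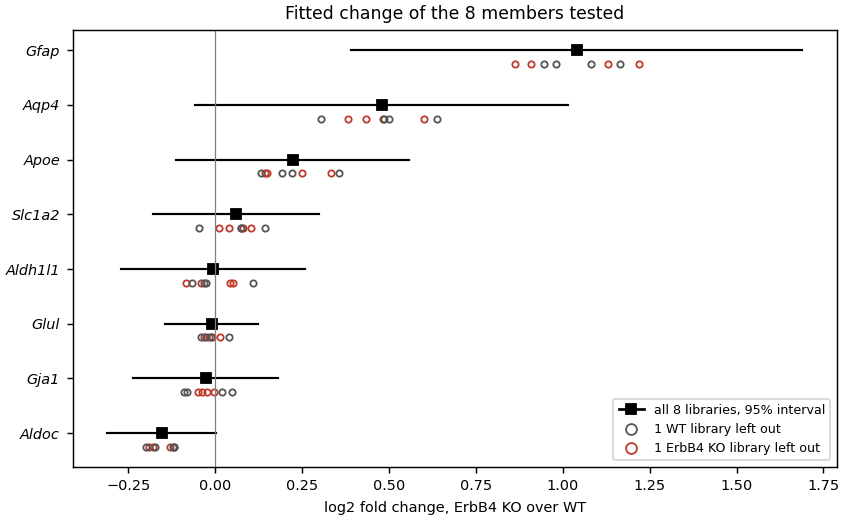
Fitted log2 fold change (ErbB4 KO over WT) of the 8 members tested, with 95% interval (black), and the values when 1 WT (grey) or 1 ErbB4 KO (red) library is left out. Gfap stays between 0.86 and 1.22, and the intervals of the other 7 members include 0.

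S100b encodes a calcium-binding protein of astrocytes and some oligodendrocyte-lineage cells. Its gene lies on chromosome 10 from 75716598 to 75723904. The reads were 13, 1, 3 and 7 in WT replicates 1 to 4 and 15, 11, 10 and 1 in the KO-labelled replicates. As CPM this was 0.464, 0.0321, 0.0782 and 0.199 in WT and 0.304, 0.316, 0.256 and 0.0318 under the KO label. The highest value was in WT replicate 1 and the lowest in KO-labelled replicate 4, and the groups overlapped fully. The exact two-sided permutation p was 0.771. S100b did not pass the filter on low counts. Fitted with no filter it gave 0.31 on the log2 scale with an SE of 0.70 and an adjusted p of 0.926 in edgeR, an error too wide to show a doubling or its absence at this depth.

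Aqp4 encodes the water channel of astrocyte end-feet. Its reads were 37, 52, 31 and 45 in WT replicates 1 to 4 and 86, 67, 82 and 39 in the KO-labelled replicates. This was 1.32, 1.67, 0.808 and 1.28 CPM in WT against 1.75, 1.92, 2.10 and 1.24 CPM under the KO label. As for Gfap, KO-labelled replicates 1 to 3 were above all WT libraries and replicate 4 was among them. The means were 1.27 ± 0.353 and 1.75 ± 0.371 CPM, a fitted change of 0.48 on the log2 scale (SE 0.24) whose adjusted p was 0.81 in edgeR. The exact permutation p was 0.143. Without WT replicate 3 the fitted change was 0.30.

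The gap-junction genes were far apart in level. Gja1 was not called, and Gjb6 did not pass the filter on low counts. Gja1, which encodes connexin 43 of radial glia and astrocytes, lies on chromosome 10 from 56097106 to 56110225 and was at 30.4, 31.1, 40.5 and 38.5 CPM in WT and at 35.3, 32.7, 34.2 and 35.8 CPM under the KO label. The KO-labelled libraries lay inside the WT range, with a log2 fold change of -0.03 (SE 0.096, 95% interval -0.24 to 0.18). Gjb6, which encodes connexin 30 of mature astrocytes, lies on chromosome 14 from 57742140 to 57752448. It had 0 reads in 7 libraries and 3 reads (0.0768 CPM) in KO-labelled replicate 3. By the floor of 3 reads, a count of 0 allows a level of up to 0.0614 to 0.106 CPM depending on the library, and the upper bounds of the two-sided exact 95% intervals are 0.0755 to 0.131 CPM. Fitted with no filter in edgeR, Gjb6 had an adjusted p of 0.813. KO-labelled replicate 3 is the library with choroid plexus RNA, and the part of that RNA in the 3 reads was not tested.

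The glutamate genes were abundant. Slc1a2, which encodes the glutamate transporter GLT-1, lies on chromosome 2 from 102498816 to 102630941 and was at 89.5, 136, 119 and 119 CPM in WT replicates 1 to 4 and at 133, 115, 110 and 125 CPM under the KO label. The low WT value was that of replicate 1, and the KO-labelled libraries lay within the WT range (log2 fold change 0.06, SE 0.11, 95% interval -0.18 to 0.30). Glul, which encodes glutamine synthetase, was at 163, 147, 142 and 138 CPM in WT and at 153, 146, 149 and 138 CPM under the KO label. It was the steadiest member, with a highest library only 1.18-fold above the lowest and a log2 fold change of -0.01 (SE 0.061, 95% interval -0.14 to 0.12). Glul lies on chromosome 1 from 155747074 to 155756853, the chromosome that also carries Erbb4.

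The metabolic enzymes did not separate by genotype. Aldh1l1, which encodes 10-formyltetrahydrofolate dehydrogenase, lies on chromosome 6 from 90436421 to 90550197 and was at 38.0, 29.5, 29.3 and 26.9 CPM in WT and at 32.9, 35.8, 27.7 and 26.7 CPM under the KO label (log2 fold change -0.0055, SE 0.12). The direction of this value turned under several alternatives. Aldoc, which encodes the brain aldolase isozyme, lies on chromosome 11 from 78136470 to 78141283 and was at 172, 146, 154 and 173 CPM in WT and at 134, 138, 153 and 155 CPM under the KO label. All 4 KO-labelled libraries were below the WT median of 163 CPM, yet the groups overlapped. The log2 fold change was -0.15 (SE 0.072, 95% interval -0.31 to 0.0039), with an unadjusted p of 0.055 and an adjusted p of 0.81 in edgeR. With Xist as a covariate it was -0.26, with an adjusted p of 0.9998 in edgeR. Aldoc was then the only 1 of 8 members with an unadjusted p below 0.05, against 1.68% of all genes. Because the libraries do not keep the strand, reads of antisense neighbours cannot be told apart where exons overlap, which holds for 11.1% of the exon bases of Aldh1l1 (Gm15756), 2.0% of Glul (5830403L16Rik) and 1.4% of Slc1a2 (Gm13872).

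Apoe encodes the lipid carrier apolipoprotein E, made by astrocytes, radial glia and microglia. Its gene lies on chromosome 7 from 20281458 to 20284515. It was at 48.5, 38.3, 31.0 and 36.0 CPM in WT and at 51.9, 42.3, 51.6 and 33.3 CPM under the KO label. KO-labelled replicates 1 and 3 were above all WT libraries and KO-labelled replicate 4 was below 3 of them. The means were 38.5 ± 7.35 and 44.8 ± 8.82 CPM, a fitted change of 0.22 on the log2 scale (SE 0.15) whose adjusted p was 0.81 in edgeR. The exact permutation p was 0.343. The fitted change was 0.13 without WT replicate 3, 0.14 without KO-labelled replicate 1, 0.15 without KO-labelled replicate 3 and 0.35 without WT replicate 1. The summed level of 10 microglia genes was 74.9 to 89.5 CPM in WT and 76.5 to 95.3 CPM under the KO label, and its part in the Apoe values was not tested.

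The members varied in different directions between libraries. Of the 9 members detected in all libraries, KO-labelled replicate 4 had the lowest value of its group in 6 (Gfap, S100b, Aldh1l1, Aqp4, Glul and Apoe) and the highest in Gja1 and Aldoc. Across the 8 libraries, log2 CPM of Gfap correlated with that of Aqp4 at r = 0.74 (0.78 without WT replicate 1) and with that of Aldoc at r = -0.84 (-0.78 without WT replicate 1). Aqp4 and Apoe correlated at r = 0.75 (0.86 without WT replicate 1), and Gja1 with Glul at r = -0.68 (-0.49 without it). Other pairs moved more without WT replicate 1: Gfap with Aldh1l1 went from r = 0.21 to 0.81, with Glul from 0.02 to 0.71 and with Apoe from 0.47 to 0.79. These are descriptions over 8 libraries, and genotype, depth and sex differ among them. The spread between libraries was largest in the scarce members: the highest library was 14.6-fold above the lowest in S100b, at 1 to 15 reads, 3.62-fold above the lowest in Gfap and 2.60-fold in Aqp4, against 1.29-fold in Aldoc.

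**Figure D4:**
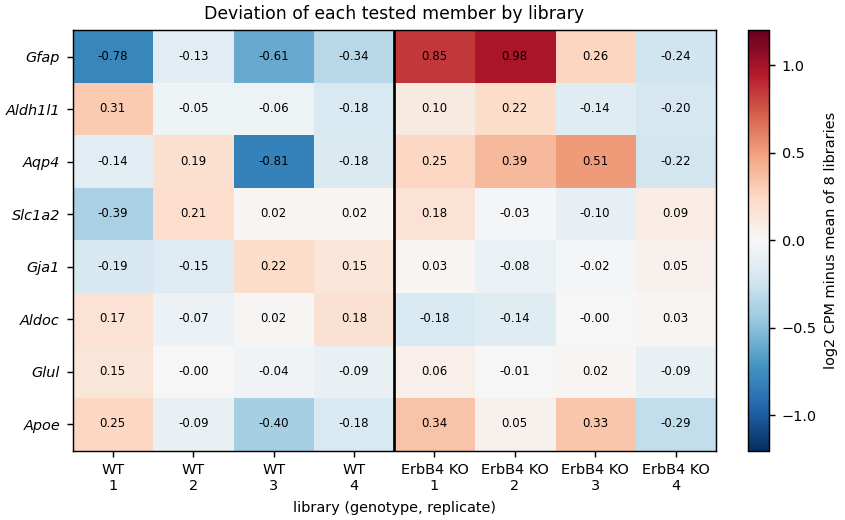
Deviation of log2 CPM from the mean of the 8 libraries for each tested member (rows) and library (columns, WT left of the line, ErbB4 KO right). Gfap runs from -0.78 in WT replicate 1 to 0.98 in KO-labelled replicate 2, and Glul stays within 0.15 of its mean.

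Other astroglial genes were described next to the members, from a list of 34 that holds further transporters, receptors and transcription factors. This and the other context lists were chosen with earlier results of these data known, so their shares are descriptions and not independent support. None of the 31 tested was called, 19 were higher and 12 lower under the KO label, and the median log2 fold change was 0.06, or 0.12 without WT replicate 2. At an unadjusted p below 0.05, 5 of 31 were found and all were higher, beside 5.53% of all genes tested. The highest change was that of Dio2, the deiodinase that activates thyroid hormone, at 4.43 ± 0.820 CPM in WT and 6.58 ± 1.90 CPM under the KO label (log2 fold change 0.58, SE 0.21, adjusted p = 0.81, edgeR). The lowest was that of Mt2, a metallothionein (log2 fold change -0.25, SE 0.20). Slc4a4, a sodium bicarbonate cotransporter named after its values were seen, was at 10.6 to 17.0 CPM in WT and 17.3 to 22.9 CPM under the KO label without overlap, as for 3.34% of all genes tested (log2 fold change 0.48, SE 0.14, adjusted p = 0.81, edgeR).

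Among 19 radial glia and progenitor genes, none was called, 16 were lower and 3 higher under the KO label, and the median log2 fold change was -0.14. At an unadjusted p below 0.05, 8 of 19 were found, of which 7 were lower, beside 5.53% of all genes tested. As this list too was chosen with earlier results known, its share is a description only. The highest change was that of Tnc, an extracellular matrix protein of radial glia, at 82.8, 105, 99.0 and 93.2 CPM in WT and 132, 147, 123 and 96.7 CPM under the KO label (log2 fold change 0.39, SE 0.11, adjusted p = 0.81, edgeR). KO-labelled replicate 4 again lay among the WT libraries. The lowest was that of Neurog2, a proneural transcription factor, at 179 to 234 CPM in WT and 137 to 181 CPM under the KO label (log2 fold change -0.35, SE 0.11, adjusted p = 0.81, edgeR). Over the 8 libraries, log2 CPM of Gfap correlated with that of Tnc at r = 0.96 and with that of Neurog2 at r = -0.90. Both genes were named for their extreme change between the groups, so correlations over the pooled groups partly follow from that choice. Without KO-labelled replicate 4 the median of the progenitor list was -0.23.

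Genes of other cells were checked in the same libraries. The 8 oligodendrocyte lineage genes were all higher under the KO label with a median log2 fold change of 0.18 and none called, from Mbp (0.02) to Sox10 (0.61, SE 0.19), and 3 of 8 had an unadjusted p below 0.05, beside 5.53% of all genes tested. Their median ranged from 0.12 without WT replicate 1 to 0.31 with Xist as a covariate. The median was 0.03 for 12 neuron genes (lowest Tbr1, -0.11), -0.02 for 10 interneuron and ganglionic eminence genes (Dlx6 0.08, Sst -0.23), 0.05 for 10 microglia genes (P2ry12 0.20, Aif1 -0.37) and 0.04 for 10 endothelial and pericyte genes (Pdgfrb 0.18, Rgs5 -0.29). It was 0.09 for the 6 meningeal genes tested (Col1a2 0.62, Dcn -0.04), 0.03 without KO-labelled replicate 3, 0.15 without WT replicate 1 and 0.17 without KO-labelled replicate 4. The summed level of the meningeal genes was 88.9 CPM in KO-labelled replicate 3 and 63.0 to 69.7 CPM elsewhere, and Col1a2 was highest there at 6.55 CPM. No gene of these 5 lists was called, and an unadjusted p below 0.05 was found for 2 of 12 neuron genes, 1 of 10 interneuron genes and 0 of the others, beside 5.53% of all genes tested. Leaving out single libraries moved the interneuron median between -0.10 and 0.07 (0.25 with Xist as a covariate) and the microglia median between -0.02 and 0.11, so neither kept its sign. The neuron median moved between 0.0046 (without WT replicate 3) and 0.05 (without WT replicate 1), and the endothelial and pericyte median between 0.02 (without KO-labelled replicate 2) and 0.07 (without KO-labelled replicate 1).

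Red blood cell and choroid plexus genes differed widely between libraries. The embryonic globin Hbb-y was at 34.6, 31.6, 26.3 and 13.9 CPM in WT replicates 1 to 4 and at 3.69, 4.05, 6.73 and 18.3 CPM in the KO-labelled replicates. It was low in KO-labelled replicates 1 to 3, where Gfap was high, and its log2 CPM correlated with that of Gfap at r = -0.93 over 8 libraries. Hba-x of the same list went the same way (r = -0.96), but Alas2 went the other way (r = 0.74). Alas2 was at 11.9 ± 1.11 CPM in WT and 13.8 ± 2.43 CPM under the KO label (SD, n = 4 each). Correlations of the other genes of this list with Gfap are not given here. The summed level of the 10 red blood cell genes was 33.2 to 58.1 CPM in WT and 23.2 to 36.6 CPM under the KO label. This sum includes Hbb-y and Hba-x, and a sum without them is not given here. Hba-a1, Hba-a2 and Hbb-b2 were at 0 in every library, and the cause of this was not tested. The median log2 fold change was -0.15 over the 5 red blood cell genes tested (Alas2 0.21, Hbb-y -1.72). Leaving out single libraries moved this median between -0.35 (without KO-labelled replicate 2) and 0.09 (without KO-labelled replicate 4), and it was 0.14 with Xist as a covariate and -0.55 with a mean of at least 50 counts. None was called and 2 of 5 had an unadjusted p below 0.05, as did 4 of 5 choroid plexus genes, beside 5.53% of all genes tested. The summed level of 7 choroid plexus genes was 631 CPM in KO-labelled replicate 3 and at most 15.48 CPM elsewhere. Their median log2 fold change was 2.30 over the 5 tested (Ttr 4.82, Otx2 0.70) and -0.23 without that library. This median was 0.70 with DESeq2, 1.15 with limma-voom and 1.47 with the replicate block. With WT replicate 1 and KO-labelled replicate 3 both left out it was -0.35. Without KO-labelled replicate 3, the log2 fold change of Gfap was 1.13, against 1.04 with it. As Hbb-y and Alas2 differed in direction, the red blood cell list gives no single measure of blood content. The part of blood content, and of what else the levels of Hbb-y and Hba-x follow, in the Gfap values was not tested.

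**Figure D5:**
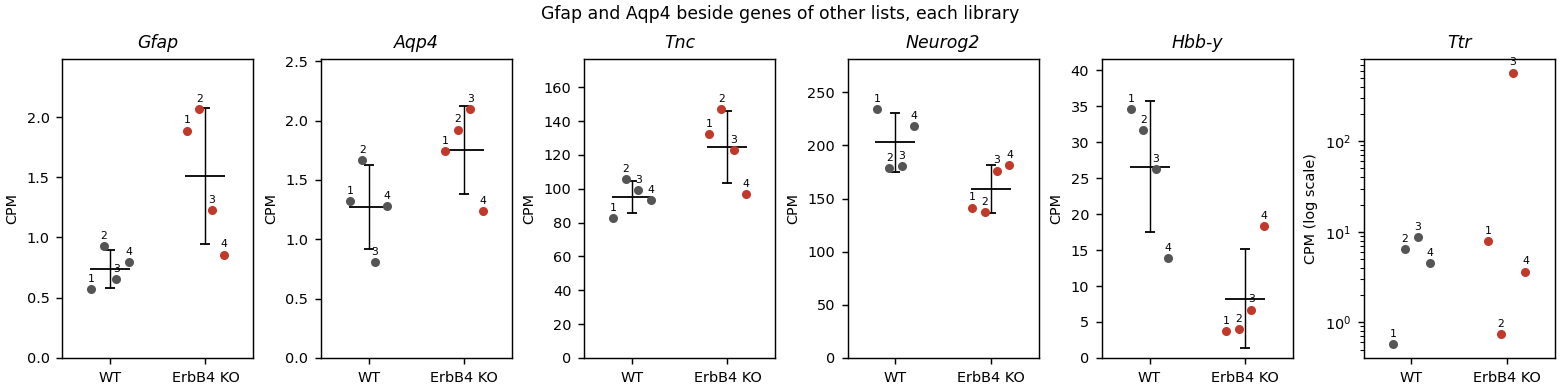
CPM of Gfap and Aqp4 beside Tnc, Neurog2, Hbb-y and Ttr (log axis) in each WT (grey) and ErbB4 KO (red) library, numbered by replicate, with mean and SD where the axis is linear. KO-labelled replicates 1 to 3 are high in Gfap and Tnc and low in Hbb-y, KO-labelled replicate 4 lies among the WT libraries in Gfap and Tnc, and Ttr is high only in KO-labelled replicate 3.

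The tested genes whose log2 CPM followed Gfap most closely over the 8 libraries were Enpep (Pearson r = 0.985, 0.178 to 0.689 CPM), Eef2k (r = 0.984, 63.4 to 81.4 CPM) and Ncam1 (r = 0.980, 374 to 460 CPM). For S100b they were Myadml2 (r = 0.957), Phactr3 (r = 0.944) and Slc25a18 (r = 0.941), of which Slc25a18, a mitochondrial glutamate carrier, was at 0.349 to 0.948 CPM. These are the highest of 14696 correlations each, and the libraries differ in genotype, depth and sex.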

How the data were processed

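RNA of 8 cortex libraries (4 WT, 4 ErbB4 KO, grouped by the labels) was sequenced. Per the study's methods, the authors removed meninges and ganglionic eminences, sequenced polyA libraries that keep no strand from one end, aligned them to mm9 by HISAT and obtained gene totals from HTSeq-count. Annotation and counting mode are not given in the sources used here. The deposited counts are raw whole numbers per gene symbol, with total counts of 28205703 to 48871480 per library, so mapping and counting are fixed in the values. The authors' DESeq2 comparison table (fold changes and p-values) was not used.

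Counts were TMM-scaled and tested with edgeR 4.0.16 in R 4.3.3 (glmQLFit, glmQLFTest), keeping genes by filterByExpr (minimum count 10, minimum total 15), with Benjamini-Hochberg adjustment over 14696 genes at 0.05. Log2 CPM has a prior count of 2. Single members were also tested by exact two-sided permutation over 70 assignments (SciPy 1.17.1). Intervals per library are exact binomial intervals on the raw library total, without TMM factors, and cover counting error only. Alternatives were DESeq2 1.42.0, limma-voom (limma 3.58.1), relative log expression and upper-quartile scaling, a minimum mean of 50 counts, no filter, a prior count of 0.5, a threshold of 0.1, the replicate block, Xist as a covariate, removal of the length trend, each library left out and, added after seeing the data, 2 libraries left out together. The main edgeR fit, DESeq2 and limma-voom were also run on simulated counts in which 200 genes had been changed. The other alternatives were not run on simulated counts. No replicates matched within sampling noise (lowest chi-square per gene 6.19).

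The members and the 10 context lists were chosen with earlier results of these data known. Named genes were the members, Erbb4, Xist and Ddx3y, the highest and lowest change of each context list, and the 3 genes most correlated with Gfap and with S100b. Slc4a4 and Hba-x fall outside this rule and were chosen after their values were seen. The highest change among the neuron genes is not reported here. Promoters, lengths and positions came from GENCODE vM1 on NCBIM37.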

Additional observations from a re-analysis of the deposited data

Results flagged for a closer look

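Gjb6 in ErbB4 KO replicate 3, at 0.0768 CPM (3 reads), stood apart from the other libraries of its group, which had 0 reads. Of 21 groups of values checked in this way, 1 was found, and about 1 in 20 is found by chance. With 0 reads in the rest of its group, any reads in 1 library would be flagged, so that rate does not apply to Gjb6.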

How the results depend on the processing

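No member was called under any of the alternatives run. The count of all genes called was 4, and it was 23 with DESeq2, 2 with the length trend removed and 1 each with Xist as a covariate, relative log expression, upper-quartile scaling and the replicate block. It ranged from 1 to 13 with 1 library left out, the highest without WT replicate 4. The cause of these shifts was not tested. The correlations of same-numbered deviations between the groups were 0.024 to 0.135. Different-numbered ones were not set beside them, so these values cannot settle whether the replicate numbers pair the samples. With the replicate block Gfap had a log2 fold change of 0.99 (adjusted p = 0.673, edgeR). Gfap and Aldoc were then at an unadjusted p below 0.05, which is 2 of 8 members against 6.97% of all genes. Members whose groups did not overlap numbered 0 to 2 with 1 library left out, against 4.5% to 9.95% of all genes. These were Gfap without WT replicate 2 (9.55% of all genes) and Gfap and Aqp4 without ErbB4 KO replicate 4 (9.95%). Red blood cell genes called numbered 0 to 1 (Hba-x without ErbB4 KO replicate 4, where 2 of 14821 genes were called). Gfap, Aqp4, Apoe and Aldoc kept their direction under every alternative that tested them, and Gfap could not be tested with a mean of at least 50 counts. The 4 members near 0 turned direction. Aldh1l1 was at 0.17 with Xist as a covariate, 0.16 with WT replicate 1 and ErbB4 KO replicate 3 both left out, 0.0065 with limma-voom, 0.0026 with upper-quartile scaling and -0.085 to 0.11 with 1 library left out. Slc1a2 was at -0.039 with the length trend removed and -0.045 to 0.14 with 1 library left out. Gja1 was at -0.14 with Xist as a covariate and -0.091 to 0.049 with 1 library left out. Glul was at 0.068 with Xist as a covariate, 0.036 with both libraries left out, 0.0081 with the length trend removed and -0.040 to 0.040 with 1 library left out. Depth limits S100b, with 1 to 15 reads per library, and Gjb6.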
